A study of Mus musculus with 24 samples.

Results

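Skeletal muscle genes are transcripts of striated muscle fibres, and 10 of them were followed over single ventral prostate arrays: Ckm, Acta1, Mylpf, Myl1, Myh4, Tnnt3, Tnnc2, Tnni2, Pvalb and Atp2a1. All probe sets that the annotation of the array (MOE430A) assigns to these symbols were taken, which gave 12 of the 22690 probe sets on the array, 3 of them for Tnni2 and 1 for each other gene. Total RNA of the ventral prostate was hybridised to 24 arrays, 4 biological replicates from each of 6 inbred strains (BALB/c, C57BL/6, 129X1, AKR, FVB and SWR). All mice were wild type, 8 weeks old, kept on a standard diet and untreated. The groups differ by strain, with no engineered allele, transgene or agent between them. The title of the series places the strains in a search for modifiers of cancer. The labels do not say whether RNA of several mice was pooled for an array, nor how the lobe was dissected.

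The ventral prostate is a glandular lobe whose ducts are lined by secretory epithelium and wrapped in thin sheaths of smooth muscle. Striated muscle fibres, in contrast, contract through sarcomeres, in which myosin heavy and light chains pull on actin filaments, and the troponin complex on the thin filament makes this pull depend on calcium. A calcium pump refills the sarcoplasmic reticulum after each contraction, parvalbumin binds calcium in fast fibres, and creatine kinase renews ATP. In mice, striated muscle surrounds the urethra close to the prostate and forms the pelvic floor.

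Values are intensities on a linear scale after each array was rescaled to the same trimmed mean, and log2 values are log2(intensity + 16). The 40th percentile of an array, used as the mark of low signal, lay between 29.8 and 36.7. A probe set was tested if it exceeded that mark on at least 4 arrays, which 15775 of all probe sets and 8 of the 12 muscle probe sets did. The defining prostate transcripts were bright on every array, at 5133 to 11209 for Spink1, a secreted protease inhibitor, 899.6 to 8785 for Pbsn, the androgen-dependent probasin, and 747 to 1239.7 for Hoxb13, a homeobox factor of the prostate. With 4 arrays a strain, precision is set by that number and by the spread between arrays. In tissue RNA, a difference in the number of muscle fibres and a difference in RNA per fibre cannot be told apart.

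Promoter sequences from RefSeq (build GRCm38.p6, a window across each transcription start) were found for 8 of the 10 genes, all but Tnni2 and Tnnt3. They are shown, ahead of the values they go with, for Ckm (chr7:19410844-19411143, plus strand) and Myh4 (chr11:67237562-67237861, plus strand), which were high on single arrays, and for Acta1 (chr8:123894726-123895025, minus strand) and Tnnc2 (chr2:164779685-164779984, minus strand), which followed the smooth muscle genes. Capitals mark matches on either strand to the E-box CANNTG, to which myogenic factors such as MyoD bind, to TATAAA, to the CArG box of serum response factor and to the MEF2 site, and overlapping matches merge into 1 run.
Ckm: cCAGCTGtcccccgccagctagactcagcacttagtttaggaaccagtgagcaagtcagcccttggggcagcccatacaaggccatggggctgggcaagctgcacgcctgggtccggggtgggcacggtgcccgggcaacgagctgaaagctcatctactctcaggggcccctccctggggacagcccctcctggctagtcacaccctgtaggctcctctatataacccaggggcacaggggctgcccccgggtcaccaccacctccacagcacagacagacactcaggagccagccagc
Myh4: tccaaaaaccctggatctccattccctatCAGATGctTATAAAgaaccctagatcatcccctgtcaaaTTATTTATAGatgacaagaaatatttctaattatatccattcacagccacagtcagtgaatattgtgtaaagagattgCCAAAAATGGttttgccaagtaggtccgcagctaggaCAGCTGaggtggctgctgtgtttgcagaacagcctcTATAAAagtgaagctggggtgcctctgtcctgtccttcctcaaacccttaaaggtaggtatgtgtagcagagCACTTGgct
Acta1: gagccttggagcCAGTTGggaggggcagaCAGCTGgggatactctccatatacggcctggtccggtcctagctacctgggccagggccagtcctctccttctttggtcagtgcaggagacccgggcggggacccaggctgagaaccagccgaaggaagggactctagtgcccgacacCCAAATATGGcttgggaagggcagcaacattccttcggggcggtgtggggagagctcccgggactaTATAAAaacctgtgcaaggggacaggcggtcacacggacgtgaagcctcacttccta
Tnnc2: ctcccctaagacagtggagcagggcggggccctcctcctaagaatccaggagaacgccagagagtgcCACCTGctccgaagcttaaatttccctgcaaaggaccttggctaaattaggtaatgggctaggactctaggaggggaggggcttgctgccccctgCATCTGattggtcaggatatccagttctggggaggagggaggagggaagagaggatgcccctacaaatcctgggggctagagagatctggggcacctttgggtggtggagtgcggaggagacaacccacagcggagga

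Acta1 and Myh4 hold 1 CArG box each, CCAAATATGG and CCAAAAATGG, the only ones among the 9 promoters of the 8 genes (Pvalb has 2), and 1.63% of the 32851 mouse promoters in the table hold 1 or more. A MEF2 site lies in Myh4 and in 1 promoter of Pvalb (3.19% of all promoters), and TATAAA lies in Myl1, Acta1 and Myh4 (13.6%), in Myh4 once within the MEF2 match. An E-box lies in 8 of the 9, but it is also in 72.3% of all promoters. The E-box CAGCTG is in Ckm, Acta1, Myh4, Myl1, Mylpf and Atp2a1, while Tnnc2 has CACCTG and CATCTG. A match is a string of letters in this window and not evidence of binding.

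Ckm, the muscle creatine kinase, was far brighter on a few arrays than on the others of the same strain. Its intensities on replicates 1 to 4 were 69.4, 75.6, 77.4 and 149 in AKR, 60.1, 67, 85.7 and 264 in SWR, 82.8, 59.6, 104 and 486 in 129X1, 97.4, 72.7, 93.4 and 63.3 in FVB, 112, 119, 57.8 and 67.5 in BALB/c and 72.6, 56.6, 30.8 and 125 in C57BL/6. Replicate 4 of 129X1 stood highest of all 24 arrays, followed by replicate 4 of SWR and then by replicates 4 of AKR and C57BL/6, which lay just above BALB/c replicates 1 and 2. In 129X1 the log2 value of replicate 4 exceeded the mean of the other 3 by 2.38, a 5.21-fold difference, and in SWR the difference was 3.24-fold. The strain means overlapped: they ran from 6.34 ± 0.66 in C57BL/6 to 7.19 ± 1.22 in 129X1 on the log2 scale (SD, n = 4). No neighbours in that order differed beyond their spread.

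The fast myosin genes had the same arrays on top. Myh4, the heavy chain of the fastest (type IIb) fibres, was at 1.54, 0.493, 3.98 and 2.55 in AKR, 0.758, 0.463, 10.3 and 133 in SWR, 22.4, 4.95, 0.906 and 280.3 in 129X1, 7.08, 0.953, 0.253 and 1.20 in FVB, 18.6, 30.5, 3.35 and 10.9 in BALB/c and 13.3, 10.1, 1.12 and 36.4 in C57BL/6. It was near the bottom of the scale on most arrays and exceeded the 40th percentile on 3, the replicates 4 of 129X1, SWR and C57BL/6. Mylpf, the regulatory light chain of fast fibres, was at 2.22, 1.97, 2.31 and 4.71 in AKR, 0.758, 1.39, 1.87 and 62.2 in SWR, 2.02, 4.75, 2.38 and 131 in 129X1, 1.10, 1.56, 14.1 and 5.91 in FVB, 32.1, 16.3, 8.37 and 5.36 in BALB/c and 23.3, 12.8, 1.59 and 52.2 in C57BL/6, and it too exceeded the mark on these 3 arrays only. Myl1, the fast essential light chain, was at 4.62, 10.6, 3.46 and 3.14 in AKR, 3.25, 15.7, 31.2 and 70.8 in SWR, 11, 21.7, 8.49 and 208 in 129X1, 3.68, 3.64, 10.6 and 25.1 in FVB, 50.0, 40.4, 20.5 and 6.62 in BALB/c and 5.26, 24.8, 1.83 and 118 in C57BL/6. Here C57BL/6 replicate 4 was brighter than SWR replicate 4, and BALB/c replicates 1 and 2 also lay above the mark. Against the other 3 arrays of the strain, 129X1 replicate 4 was 12.4-fold higher for Myh4, 7.71-fold for Mylpf and 7.67-fold for Myl1. These folds carry the pseudocount of 16 and so understate differences that start from the bottom of the scale.

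The fast troponins were measured by 5 probe sets. Tnni2, the fast inhibitory subunit that holds back the thin filament, has 3 of them. The first (probe set 1416889_at) was at 2.22, 4.34, 3.21 and 3.34 in AKR, 2.16, 1.67, 2.64 and 77.2 in SWR, 9.51, 2.18, 1.70 and 227 in 129X1, 3.03, 2.77, 3.30 and 2.49 in FVB, 30.4, 5.72, 1.90 and 5.20 in BALB/c and 3.95, 9.23, 4.30 and 65.7 in C57BL/6, with the same 3 replicates 4 at the top and no other array above 30.4. The second (1438609_x_at), whose suffix marks probes that may also bind other transcripts, was at 14.3, 3.25, 6.67 and 31.4 in AKR, 4.33, 3.42, 6.92 and 50.9 in SWR, 23.6, 14.3, 18.9 and 94.6 in 129X1, 17.8, 5.28, 6.34 and 21.3 in FVB, 33.1, 35.8, 31.5 and 11.2 in BALB/c and 21, 22.9, 17 and 41.8 in C57BL/6. It put the same 3 arrays on top with a smaller margin. The last one (1438608_at) did not exceed the mark on any array, with a highest value of 16.9. Tnnt3, the fast subunit that anchors troponin to tropomyosin, was at 15.2, 15.6, 30.4 and 29.6 in AKR, 11.6, 5.37, 9.66 and 63.4 in SWR, 21.6, 15.2, 17.9 and 131 in 129X1, 9.84, 13, 7.35 and 3.97 in FVB, 29.4, 39.5, 8.82 and 16.4 in BALB/c and 25.9, 13.1, 11 and 48.1 in C57BL/6. The 3 arrays were again the brightest, and the next values were those of BALB/c replicate 2 and AKR replicate 3. Tnni2 and Tnnt3 lie close together on chromosome 7 with 1 protein-coding gene, Lsp1, between them in the RefSeq table of GRCm38.p6, and Ckm, Mylpf and Atp2a1 are on the same chromosome.

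The calcium-handling genes exceeded the 40th percentile on more arrays, 18 for Atp2a1 and 11 for Pvalb. Atp2a1, the calcium pump of the fast sarcoplasmic reticulum, was at 40.4, 42.9, 33.4 and 87.9 in AKR, 7.90, 30.3, 54.2 and 174 in SWR, 52.1, 27, 32.2 and 186 in 129X1, 21.2, 33.4, 43.3 and 55 in FVB, 77.9, 48.3, 31.1 and 55.3 in BALB/c and 56.6, 52.4, 32.5 and 111 in C57BL/6. The replicates 4 of 129X1 and SWR were nearly level, and C57BL/6 and AKR replicates 4 followed. Pvalb, the calcium buffer parvalbumin of fast fibres, was at 29.8, 23.5, 24.8 and 49.7 in AKR, 17.4, 32.2, 15.4 and 64.4 in SWR, 41.3, 24.5, 26 and 121 in 129X1, 48.7, 15.8, 32.3 and 12.4 in FVB, 41.6, 47.1, 12.3 and 30.1 in BALB/c and 39.9, 36.2, 27.6 and 52.9 in C57BL/6. Its spread was narrower, with 2.98-fold for 129X1 replicate 4 and 2.18-fold for SWR replicate 4 against the other arrays of their strains.

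**Figure D1:**
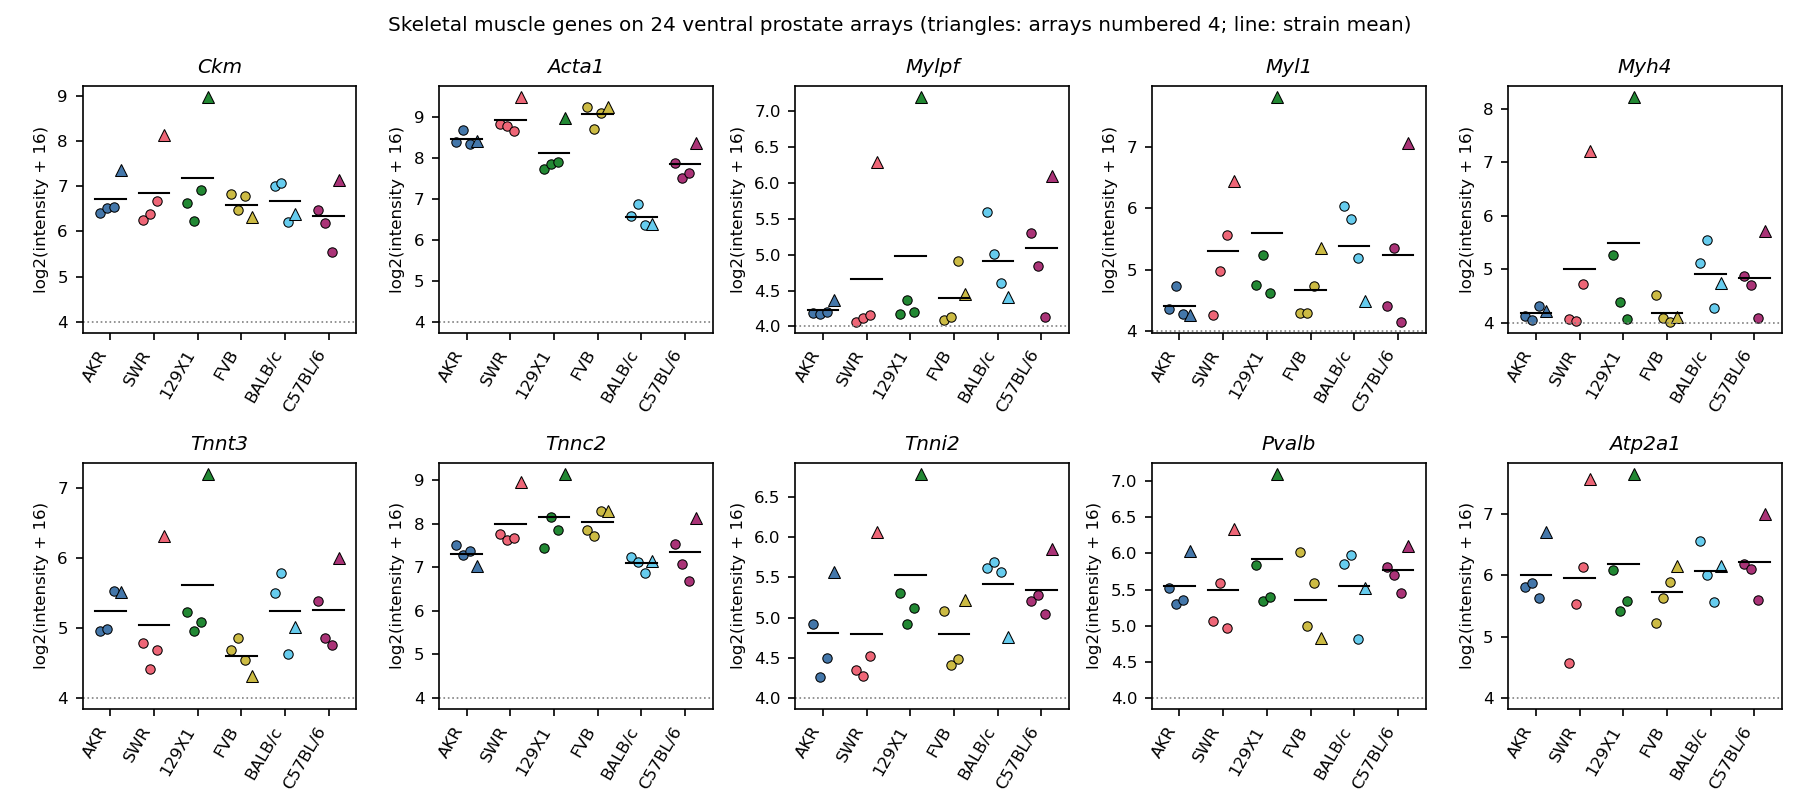
Log2(intensity + 16) of the 10 skeletal muscle genes (brightest probe set each) on the 24 arrays, by strain. Each point is an array, triangles are the replicates numbered 4, black lines are strain means and the dotted line at 4 is the value of an intensity of 0. The green (129X1), red (SWR) and purple (C57BL/6) triangles stand above the circles of their strain in all 10 panels, while Acta1 and Tnnc2 also differ between strains.

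Over the 10 genes, replicate 4 was the highest array of its strain for all 10 in 129X1, SWR and C57BL/6, for 5 in AKR, for 5 in FVB and for 0 in BALB/c. Among all tested probe sets, 2.31% had replicate 4 on top in each of 129X1, SWR and C57BL/6, and replicate 4 was on top in 30.2% in AKR, 23.4% in FVB and 25.4% in BALB/c. The median fold of replicate 4 over the other 3 arrays was 4.09 in 129X1 (range 2.21 to 12.4), 3.21 in SWR (1.66 to 7.68) and 2.04 in C57BL/6 (1.37 to 5.39). It was 1.21 in AKR, 1.11 in FVB and 0.835 in BALB/c. For 9 of the 10 genes 129X1 replicate 4 was the highest of the 24 arrays, as it was for 5.09% of all tested probe sets, and Acta1 was highest on SWR replicate 4. The highest array thus bore the number 4 for all 10 genes, against 30.2% of tested probe sets. This was not particular to them. Among tested genes of lists described below, it held for 10 of 12 of smooth muscle and 9 of 17 other contractile and calcium genes. It also held for 4 of 5 muscle regulators and junction genes, 5 of 7 fibroblast and 4 of 6 adipocyte genes. For muscle energy metabolism it was 2 of 8, for luminal genes 1 of 8 and for basal epithelium 0 of 5. For 7 of the 10 genes the 3 highest arrays were the replicates 4 of 129X1, SWR and C57BL/6. These arrays were singled out from the same genes, which vary together, so the counts describe them and support nothing. Myh4 and Mylpf are counted though they did not pass the filter that the shares of tested probe sets rest on. Myl1, Tnnt3 and Tnni2 passed it only through such high arrays.

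**Figure D2:**
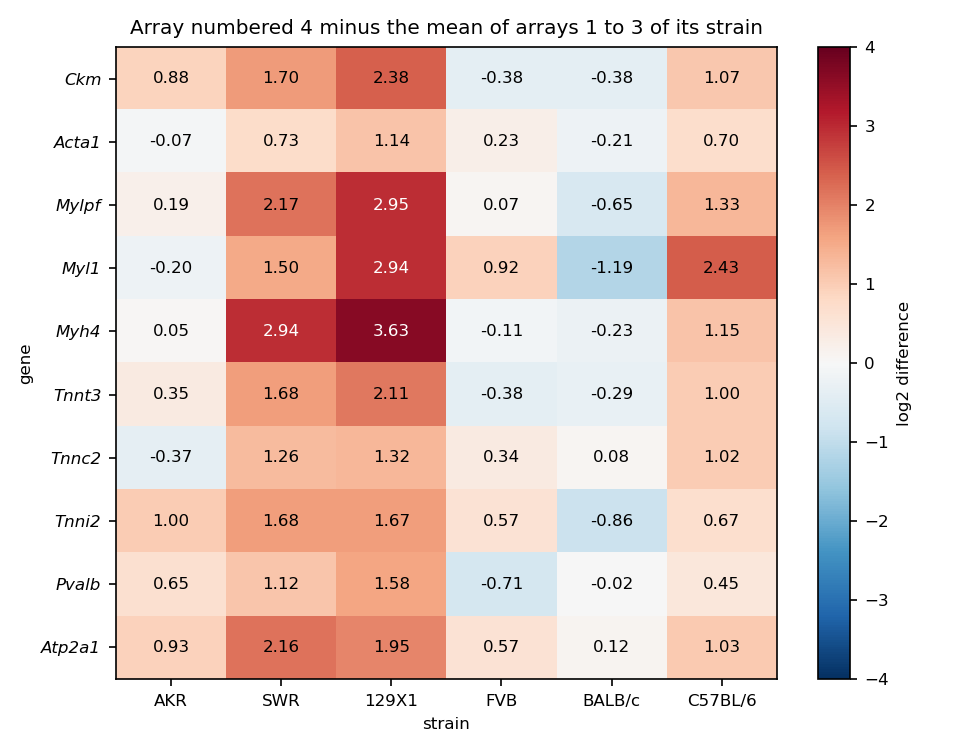
Log2 difference between the replicate numbered 4 and the mean of replicates 1 to 3 of the same strain, for each of the 10 genes (rows) and 6 strains (columns). The columns of SWR, 129X1 and C57BL/6 are positive in all 10 rows, with the largest value for Myh4 in 129X1 (3.63), while BALB/c ranges from -1.19 for Myl1 to 0.12 for Atp2a1.

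The same 3 arrays filled the top places for 12 of 15775 tested probe sets (0.0761%), of which 5 belong to the muscle genes (Myl1, Atp2a1, Tnnt3, Tnni2 and Pvalb). The 3 arrays were picked from these genes, and Myl1, Tnnt3 and Tnni2 were tested only because such arrays are high, so the members' count describes them and supports nothing. The other 7 are named here after their values were seen. They include Ttn, the giant spring protein titin, at 112, 92 and 69.9 on the replicates 4 of 129X1, SWR and C57BL/6 against at most 44.5 on the other 21 arrays, and Mb, the oxygen store myoglobin, at 123, 58.9 and 74.8 against at most 38.3. Eno3, the muscle enolase, also met the count, at 218, 147 and 114.2 against at most 113.7, a bare margin. The remaining 4 were Cfl2, a cofilin known from muscle, Hdgfl3, Fbln7 and Zfp395, each at most 0.115 above the next array on the log2 scale.

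The excess was not in the same proportion for every gene. For each gene the intensity of replicate 4 minus the mean of the other 3 was taken in SWR and in C57BL/6 as a percentage of that in 129X1. In SWR it was 47.7% for Ckm, 47.7% for Mylpf, 47.6% for Myh4, 48.1% for Tnnt3 and 47.3% for Pvalb. These 5 genes, grouped after their values were seen, had nearly the same ratio on that array. It was lower for Myl1 (27.8%) and higher for Tnni2 (60.9%), Tnnc2 (85.8%), Atp2a1 (96.8%) and Acta1 (103%). The place of Tnni2 depended on the probe set. Its percentage is that of its brightest probe set, whose suffix marks probes that may also bind other transcripts. For its probe set 1416889_at the excess was 75.1 in SWR and 222 in 129X1, a share below that of the 5 genes. In C57BL/6 the percentages ran from 10.4% for Myh4 to 55.4% for Myl1. There the same 5 genes did not share a ratio, with 17.8% for Ckm, 31.0% for Mylpf, 27.8% for Tnnt3 and 20.3% for Pvalb beside Myh4. Each value compares 1 array with 1 array and has no error of its own.

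A smaller contrast of the same kind ran within BALB/c. Replicates 1 and 2 both lay above replicates 3 and 4 for 8 of the 10 genes, against 16.1% of all tested probe sets, a split seen only after the values were known. The skeletal muscle score of an array, the mean over the 10 genes of log2 values centred on all 24 arrays, was 0.20, 0.19, -0.50 and -0.40 on BALB/c replicates 1 to 4. It was 2.0 on 129X1 replicate 4, 1.37 on SWR replicate 4 and 0.84 on C57BL/6 replicate 4, and between -0.59 and 0.20 on the other 21 arrays. FVB had no high array, with scores from -0.38 to -0.07.

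**Figure D3:**
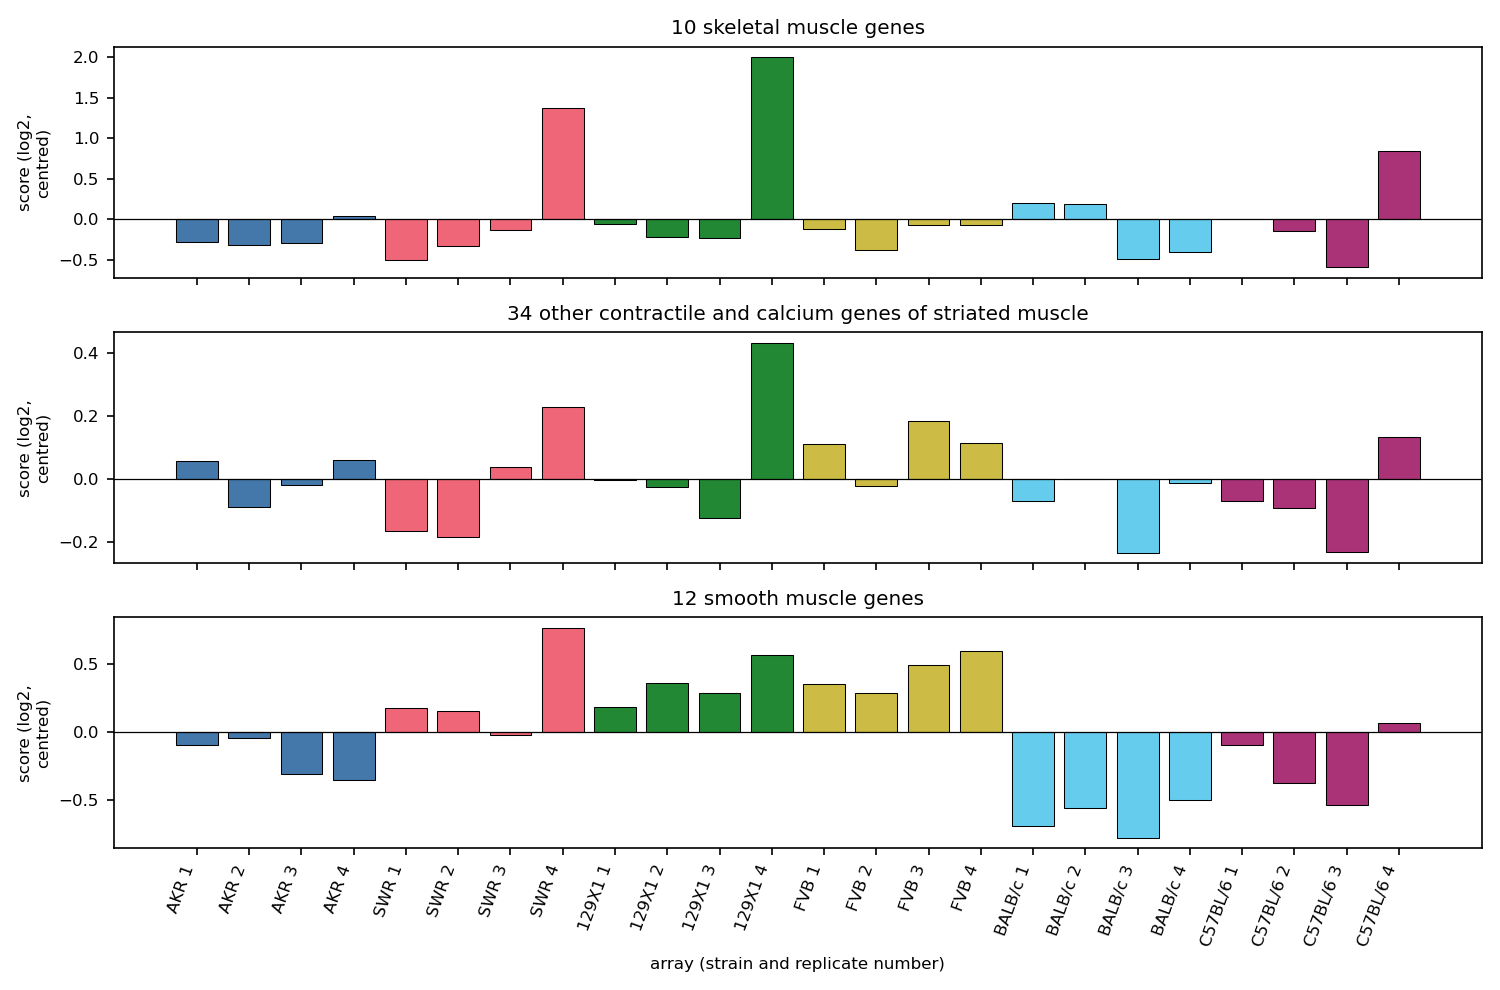
Score of each of the 24 arrays (mean centred log2 value of a gene list) for the 10 skeletal muscle genes, 34 other contractile and calcium genes of striated muscle and 12 smooth muscle genes, with bars coloured by strain and a separate vertical scale in each panel. The skeletal muscle score reaches 2.0 on 129X1 replicate 4, 1.37 on SWR replicate 4 and 0.84 on C57BL/6 replicate 4, and the smooth muscle score is between -0.78 and -0.50 on the 4 BALB/c arrays.

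Because arrays numbered 4 stood out, the replicate number was tested beside strain in limma across all 15775 probe sets. This test was chosen with that pattern already known and is no independent evidence of it. None of the 8 tested muscle probe sets was called, and no probe set on the array was (0 of 15775, 0% called). At an unadjusted p under 0.05 it counted 7 of the 8, all but Pvalb, against 5.34% of all tested probe sets. The labels give the number no meaning beyond a count of replicates, and whether it marks anything shared by the mice or the arrays was not tested. Of the 8, Myl1, Tnnt3 and Tnni2 exceeded the 40th percentile on only 4 or 5 arrays and so passed the filter through the high arrays, which also widen the spread given next.

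Within strains most of the tested muscle genes varied widely. The residual SD after strain means were removed was 0.97 for Myl1, 0.76 for Atp2a1 and 0.72 for Ckm on the log2 scale, larger than that of 99.98%, 99.87% and 99.77% of the tested probe sets. Tnnt3, Tnni2, Pvalb and Tnnc2 followed at 0.66, 0.61, 0.55 and 0.49, and Acta1 was lowest at 0.36. For Tnnc2 and Acta1, 95.7% and 84.5% of tested probe sets had a smaller SD. The median of all tested probe sets was 0.23. The between-strain share of variance was 5.90% for Atp2a1, 13.1% for Pvalb, 14.7% for Ckm, 20.2% for Myl1, 22.2% for Tnnt3 and 26.5% for Tnni2. It was 48.8% for Tnnc2 and 88% for Acta1. The median over all tested probe sets was 41.4%. These shares are not corrected for chance differences between strain means, which raise them even without a strain effect. The moderated F among strains ran from 0.28 (Atp2a1) to 1.59 (Tnni2) over the tested genes other than Tnnc2 and Acta1. The shares of those genes are therefore no evidence of a strain effect. The median residual SD of the tested muscle probe sets was 0.635, against 0.330 without the 6 arrays numbered 4, where 5 of them passed the filter.

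Between strains, 2 of the 8 tested muscle probe sets differed in the moderated F test of limma, Acta1 (adjusted p = 1.4e-07) and Tnnc2 (adjusted p = 0.027), against 36.4% of all tested probe sets. The other 6 had an adjusted p from 0.29 (Tnni2) to 0.93 (Atp2a1). Acta1 encodes the actin of the skeletal muscle thin filament. Its intensities on replicates 1 to 4 were 318, 391, 309 and 322 in AKR, 434, 425, 384 and 697 in SWR, 196, 214, 221 and 484 in 129X1, 586, 399, 534 and 589 in FVB, 79.9, 102, 65.6 and 67.9 in BALB/c and 219, 166, 182 and 314 in C57BL/6. All 4 BALB/c arrays lay below the other 20, which held for 0.856% of tested probe sets, and FVB and SWR had the highest means, with arrays that overlapped each other as well as single arrays of 129X1 and AKR. On the log2 scale the strain means were 9.07 ± 0.26 in FVB, 8.93 ± 0.37 in SWR, 8.45 ± 0.15 in AKR, 8.11 ± 0.58 in 129X1, 7.84 ± 0.38 in C57BL/6 and 6.55 ± 0.24 in BALB/c (SD, n = 4). In this order, the arrays of neighbouring strains overlapped except those of C57BL/6 and BALB/c.

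Against the mean of the other 5 strains, Acta1 was 3.81-fold lower in BALB/c (log2 difference -1.93, SE 0.18, adjusted p = 6.7e-08), 2.13-fold higher in FVB (adjusted p = 0.00037) and 1.90-fold higher in SWR (adjusted p = 0.0016). In these 3 comparisons 10.6% of tested probe sets were lower in BALB/c, 3.45% higher in FVB and 5.52% higher in SWR. The Acta1 differences of AKR (log2 0.35, adjusted p = 0.25), 129X1 (-0.06, adjusted p = 0.88) and C57BL/6 (-0.38, adjusted p = 0.20) were not called. Over both directions, 9.79% of tested probe sets were called in AKR, 10.6% in SWR, 11.6% in 129X1, 7.09% in FVB, 18.9% in BALB/c and 11.1% in C57BL/6. No other muscle probe set was called in any of the 6 comparisons, and the lowest adjusted p among them was that of Tnnc2 in BALB/c (0.056). Without the 6 arrays numbered 4, AKR was called higher and C57BL/6 lower for Acta1 as well (log2 0.49, adjusted p = 0.029, and -0.46, adjusted p = 0.033).

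Tnnc2, the calcium-binding troponin subunit of fast fibres, was bright on all arrays, at 167, 140.2, 149 and 114 in AKR, 199.6, 179.7, 188 and 476 in SWR, 159, 268, 214 and 548 in 129X1, 214, 192, 295 and 296 in FVB, 133, 122, 100.5 and 125 in BALB/c and 169, 119, 86.7 and 261 in C57BL/6. The 3 replicates 4 of 129X1, SWR and C57BL/6 were 2.51-fold, 2.40-fold and 2.03-fold above the other arrays of their strains. The 4 FVB arrays were all brighter than the 4 BALB/c arrays. The log2 means were 8.15 ± 0.72 in 129X1, 8.03 ± 0.30 in FVB, 8.00 ± 0.63 in SWR, 7.35 ± 0.62 in C57BL/6, 7.30 ± 0.21 in AKR and 7.08 ± 0.15 in BALB/c (SD, n = 4), and every pair of neighbours in this order overlapped. In BALB/c Tnnc2 was 1.60-fold below the mean of the other strains, a difference that was not called (adjusted p = 0.056). The F test call of Tnnc2 was lost without BALB/c replicate 3 (adjusted p = 0.051). Without the 6 arrays numbered 4 the F test still called Acta1 and Tnnc2, and Tnnc2 was then also called lower in BALB/c (log2 -0.52, adjusted p = 0.044).

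For the remaining genes the SD within a strain was in places larger than the difference between strains. On the log2 scale Myh4 ran from 4.18 ± 0.12 in AKR to 5.49 ± 1.88 in 129X1, Mylpf from 4.23 ± 0.10 in AKR to 5.09 ± 0.82 in C57BL/6 and Myl1 from 4.41 ± 0.22 in AKR to 5.60 ± 1.49 in 129X1 (SD, n = 4). Among the troponins Tnni2 ran from 4.80 ± 0.41 in FVB to 5.54 ± 0.85 in 129X1 and Tnnt3 from 4.60 ± 0.23 in FVB to 5.62 ± 1.06 in 129X1. Pvalb ran from 5.36 ± 0.55 in FVB to 5.92 ± 0.82 in 129X1 and Atp2a1 from 5.72 ± 0.40 in FVB to 6.22 ± 0.58 in C57BL/6. The highest mean was that of 129X1 for 5 of these 7 genes and that of C57BL/6 for Mylpf and Atp2a1, both strains with a high replicate 4, and the lowest was that of AKR or FVB. Myh4 and Mylpf did not pass the filter and have no test.

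Acta1 and Tnnc2 followed the smooth muscle genes over the arrays more closely than the other 8 muscle genes. The smooth muscle score, over 12 genes such as the actins Acta2 and Actg2 and the myosin Myh11, was highest in FVB at 0.44 ± 0.14 and lowest in BALB/c at -0.63 ± 0.13 (SD, n = 4). It was 0.35 ± 0.16 in 129X1, 0.27 ± 0.34 in SWR, -0.20 ± 0.15 in AKR and -0.23 ± 0.27 in C57BL/6. All 12 genes of the list were called in the F test (36.4% of all tested probe sets), 9 of the 12 lower in BALB/c (10.6%) and 10 of the 12 higher in FVB (3.45%). Over all 24 arrays the correlation with this score was r = 0.89 (Spearman's rho 0.93) for Tnnc2 and r = 0.83 (rho 0.80) for Acta1, and over the 18 arrays not numbered 4 it was 0.90 and 0.80. For the mean of the other 8 genes it was 0.23 over 24 arrays and -0.45 over 18. After strain means were removed, however, that mean also followed the smooth muscle score (r = 0.66 over 24 arrays, single genes 0.50 to 0.72). These correlations are descriptions of arrays that share strains.

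The same contrast shows within the muscle genes. Over the 18 arrays not numbered 4, Acta1 had r = -0.64 and Tnnc2 r = -0.24 with the mean of the other 8 genes, whereas each of these 8 had r between 0.48 (Ckm) and 0.83 (Myh4) with the mean of the remaining 7. Over the 28 pairs among the 8 genes, r ran from 0.58 to 0.89 over 24 arrays and from 0.20 to 0.74 without 129X1 replicate 4 and SWR replicate 4. After strain means were removed, Acta1 and Tnnc2 had r = 0.87 and 0.83 with the other 8 over 24 arrays, and r = 0.78 and 0.89 with the smooth muscle score. Acta1 did take part in the high arrays, at 2.21-fold in 129X1, 1.66-fold in SWR and 1.62-fold in C57BL/6. Both smooth muscle actins shared with Acta1 their lowest level in BALB/c but not the order of the other strains. Acta2, the actin of vascular and other smooth muscle, was at 12.02 ± 0.21 in FVB and 12.03 ± 0.23 in 129X1 and lowest at 11.10 ± 0.13 in BALB/c, and Actg2, the enteric smooth muscle actin, ran from 7.19 ± 0.12 in BALB/c to 8.49 ± 0.39 in SWR. AKR, the 3rd highest strain for Acta1, was 5th for both, and the cardiac actin Actc1 was lowest in C57BL/6 (5.92 ± 0.28) with BALB/c at 6.04 ± 0.28. Whether the Acta1 probe set also bound transcripts of these actins was not tested. When the smooth muscle score was added to the strain fit, an alternative chosen after seeing the data, Acta1 was still called in the F test (adjusted p = 9.4e-06), Tnnc2 was not (adjusted p = 0.074) and Tnnt3 was (adjusted p = 0.032). The FVB difference of Acta1 was then not called (log2 0.42, adjusted p = 0.39), its AKR (log2 0.66, adjusted p = 0.0046) and 129X1 (log2 -0.61, adjusted p = 0.033) differences were, Tnnt3 was called lower in FVB (log2 -1.67, adjusted p = 0.025), and Tnnc2 was called higher, not lower, in BALB/c (log2 0.86, adjusted p = 0.047).

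**Figure D4:**
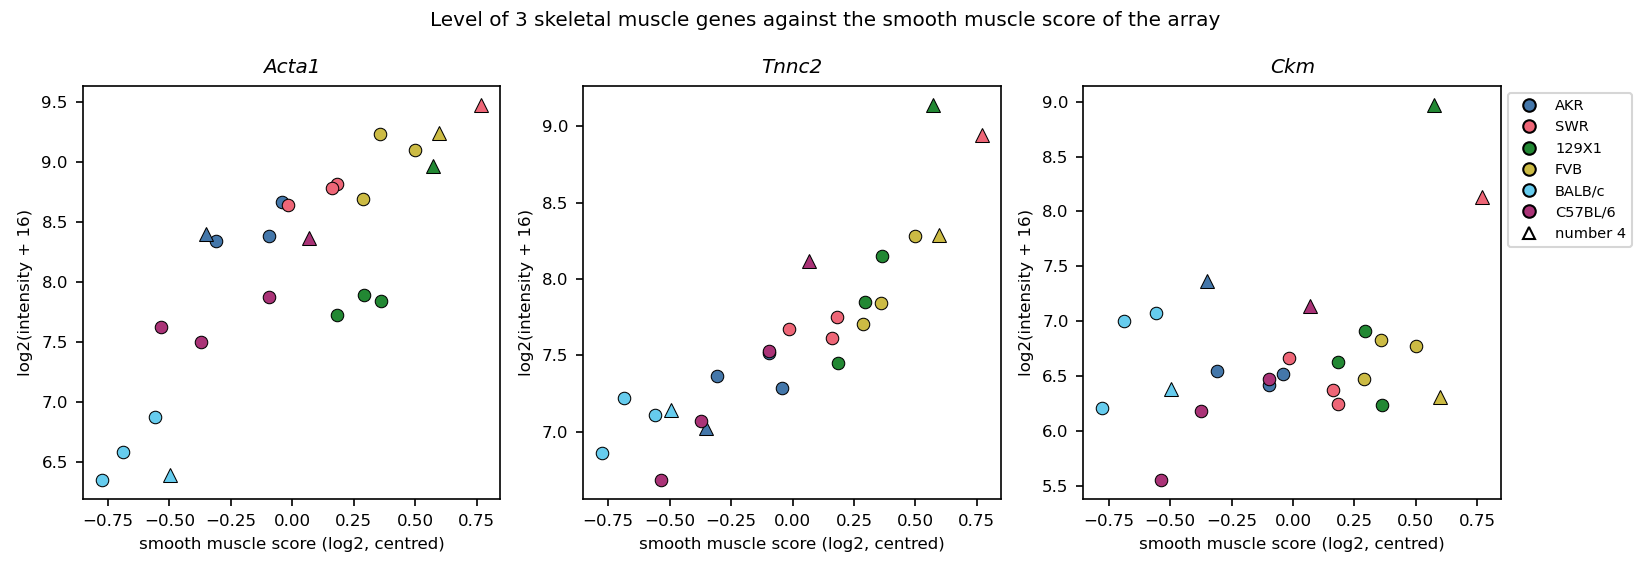
Log2(intensity + 16) of Acta1, Tnnc2 and Ckm (vertical axes) against the smooth muscle score of the same array (horizontal axis, mean centred log2 value of 12 genes). Each point is 1 of the 24 arrays, coloured by strain, with triangles for replicates numbered 4. Acta1 and Tnnc2 are higher on arrays with higher scores (r = 0.83 and 0.89), while for Ckm (r = 0.40) the 129X1 and SWR triangles stand apart from the rest.

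Other genes of striated muscle followed only in part. Of 38 further contractile and calcium genes 34 were on the array and 17 passed the filter, of which 7 were called in the strain F test, near the 36.4% of all tested probe sets, and 0 by replicate number. Against the mean of the other strains, 4 of the 17 were lower in BALB/c (10.6% of all tested), 3 higher in FVB (3.45%), 2 higher in 129X1 (6.38%), 1 higher in AKR (4.67%), and 1 higher and 1 lower in SWR (5.52% and 5.04%). For 5 of the 17 the highest array was 129X1 replicate 4 (5.09% of all tested), and the score of the list was highest there (0.43), then on SWR replicate 4 (0.23). Myh1, the heavy chain of type IIx fibres, was at 389, 153 and 141 on the replicates 4 of 129X1, SWR and C57BL/6, but its AKR arrays were bright throughout (144 to 298) and its BALB/c arrays dim (17.3 to 39.1), and it was called among strains (adjusted p = 0.0011). Actn3, the fast alpha-actinin of the Z disc, was at 124, 56.8 and 17.7 on the replicates 4 of 129X1, SWR and C57BL/6, and Tcap, which caps titin, at 132, 61.3 and 89 on the replicates 4 of 129X1, SWR and C57BL/6, against 61 to 113 in AKR. Myh2, of type IIa fibres, did not stand out, with its highest value of 74.8 on FVB replicate 3, and Tpm2, a tropomyosin also used by smooth muscle, was bright on all arrays (508 to 2146).

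Genes of slow fibres did not stand out as a list on the 3 arrays, and the difference from the fast genes was not tested. All 7 listed (Myh7, Tnni1, Tnnc1, Tnnt1, Myl2, Myl3 and Atp2a2) were on the array and 4 passed the filter. None of these 4 had its highest value on 129X1 replicate 4, but only 5.09% of all tested probe sets did. The slow score was 0.07, 0.12 and -0.05 on the 3 high arrays, within its range of -0.27 to 0.25 on the other 21. It was still the highest of the strain in 129X1, where the others ran from -0.09 to -0.01, and in SWR, where they ran from -0.27 to -0.01. Myh7, the slow heavy chain, was at 20.6, 16.3 and 9.46 on the replicates 4 of 129X1, SWR and C57BL/6, below its highest value of 49.6 on BALB/c replicate 1, and Tnni1, the slow inhibitory troponin, never exceeded 9.38. Tnnt1, the slow troponin T, was called in the F test (adjusted p = 0.016). It was highest on SWR replicate 4 at 74.4, above the 62.2 of Mylpf on that array. Its replicate 4 was also the highest of its strain, barely, in 129X1 (51.8 against at most 50.3) and C57BL/6 (39.5 against at most 39.2). Replicate 4 led in these 3 strains for 2.31% of all tested probe sets. Atp2a2 was bright on all arrays (818 to 1401).

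Of 17 genes of muscle energy metabolism, 16 were on the array and 8 passed the filter. Among strains 2 of the 8 were called, against 36.4% of all tested probe sets. The score of the list was 0.43 on 129X1 replicate 4, the highest of all arrays. On SWR replicate 4 it was 0.12 against -0.30 to -0.20, and on C57BL/6 replicate 4 0.14 against -0.20 to -0.05 on the others of the strain. Eno3 was at 218, 147 and 114 on the replicates 4 of 129X1, SWR and C57BL/6 and between 49.7 and 114 elsewhere. Pygm, the muscle glycogen phosphorylase, did not pass the filter, at 114, 51.2 and 40.2 on the replicates 4 of 129X1, SWR and C57BL/6 and a median of 15.2. Fbp2, the muscle fructose bisphosphatase, followed strain instead: it was at 94.3 to 132 in BALB/c and at most 32.7 in the other strains (adjusted p = 2.1e-10). Of the 15 transcription factors and junction genes of muscle, 12 were on the array and 5 passed. Among strains 2 of the 5 were called (36.4% of all tested probe sets). None of the 5 was highest on 129X1 replicate 4, but only 5.09% of all tested probe sets were. For 4 of the 5 the highest array was numbered 4 (30.2% of all tested). The list score was the highest of the strain on replicate 4 in 129X1 (0.08) and C57BL/6 (0.11), but the lowest in SWR (-0.09). Fbxo32 was at 764 on 129X1 replicate 4 against 292 to 351 on the others of that strain, but at 745 on SWR replicate 4 against 1087 to 1155. Myod1, a master regulator of the muscle lineage, lay between 7.36 and 48.7, and Myog, myogenin, between 5.02 and 52.2. Of 8 heart genes 4 passed and none was called among strains (36.4% of all tested probe sets). Among them Actc1, the cardiac actin, was at 141, 109.7 and 61.9 on the replicates 4 of 129X1, SWR and C57BL/6, and the heart heavy chain Myh6 never exceeded 15.6. The heart score was 0.22, 0.12 and 0.22 on these arrays. It was the highest of the strain in 129X1 and SWR, but not in C57BL/6, where replicate 2 was at 0.24.

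Other tissue markers were read on the 3 high arrays for comparison. The smooth muscle score was 0.77 on SWR replicate 4, the highest of all arrays, against -0.02 to 0.18 on the other SWR arrays. On 129X1 replicate 4 it was 0.57 against 0.18 to 0.36, and on C57BL/6 replicate 4 0.07 against -0.54 to -0.10, so it was the highest of its strain each time. The adipocyte score was 0.19, -0.25 and -0.82 on these arrays, the highest of the strain in 129X1 and SWR, but far below the 1.95 of FVB replicate 4, which had a skeletal muscle score of -0.08. The luminal score of 8 measured genes was -0.19, -0.10 and -0.17, inside the range of -0.20 to 0.31 of the other arrays. On 129X1 replicate 4 it was the lowest of the strain, against -0.13 to -0.03, and ranked 23 of 24. In SWR and C57BL/6 replicate 4 lay within the range of the strain. The fibroblast score, 0.30, 0.28 and -0.03 on the 3 arrays, and the endothelium score, 0.16, 0.17 and -0.03, were the highest of the strain in SWR and C57BL/6 but not in 129X1. The blood score of 2 genes was 0.30 and 0.11 on 129X1 and SWR replicates 4, and lowest of all 24 arrays on C57BL/6 replicate 4 (-0.96). Basal epithelium was at 0.45, 0.27 and -0.53, nerve at -0.04, -0.02 and -0.06 and urothelium at -0.15, -0.09 and -0.04, in each case not the highest of the strain. Seminal vesicle genes were faint on every array, with no value above 61.6 over the 6 genes. The part of these cell types in the skeletal muscle values of the 3 arrays was not tested.

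The genes most like the skeletal muscle score over the 24 arrays were ranked by Pearson's r among 9423 other genes, each by its tested probe set with the largest absolute r. The first 4 were Mb (r = 0.88), Ttn (r = 0.87), Eno3 (r = 0.86) and Actc1 (r = 0.82), all genes of striated muscle, and after them r dropped to 0.63 for Cdh13, a cadherin of vessels and muscle. Without the 2 arrays farthest from the median score, 129X1 replicate 4 and SWR replicate 4, r was 0.65 for Mb, 0.65 for Ttn, 0.62 for Eno3 and 0.45 for Actc1. Those 22 arrays still hold C57BL/6 replicate 4. Over the 18 arrays not numbered 4, r was 0.19 for Mb, 0.43 for Ttn, 0.59 for Eno3 and 0.47 for Actc1. Spearman's rho over all 24 arrays was 0.60, 0.60, 0.65 and 0.54. The remaining 15 of the first 20 were Tnrc6a, Cdh11, Pde4dip, Incenp, Angptl4, Rhoj, Hip1, Hoxa11, Ppl, Stc1, Actn3, Slc25a20, Cotl1, Mdfic and Timp3, with r from 0.57 to 0.62. Several of these rest on the 2 arrays, as r for Tnrc6a was then -0.04 and for Timp3, an inhibitor of matrix proteases, 0.005. The lowest r were those of Gna13 (-0.66), Trip11 (-0.63), Pbdc1 (-0.61), Erbin (-0.60) and Lrrc23 (-0.60). The score holds arrays that stand apart, so these values order genes and are not a test. Another probe set of Mb did not follow the score, with 9.99 on 129X1 replicate 4 and its highest value of 43 on AKR replicate 3.

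**Figure D5:**
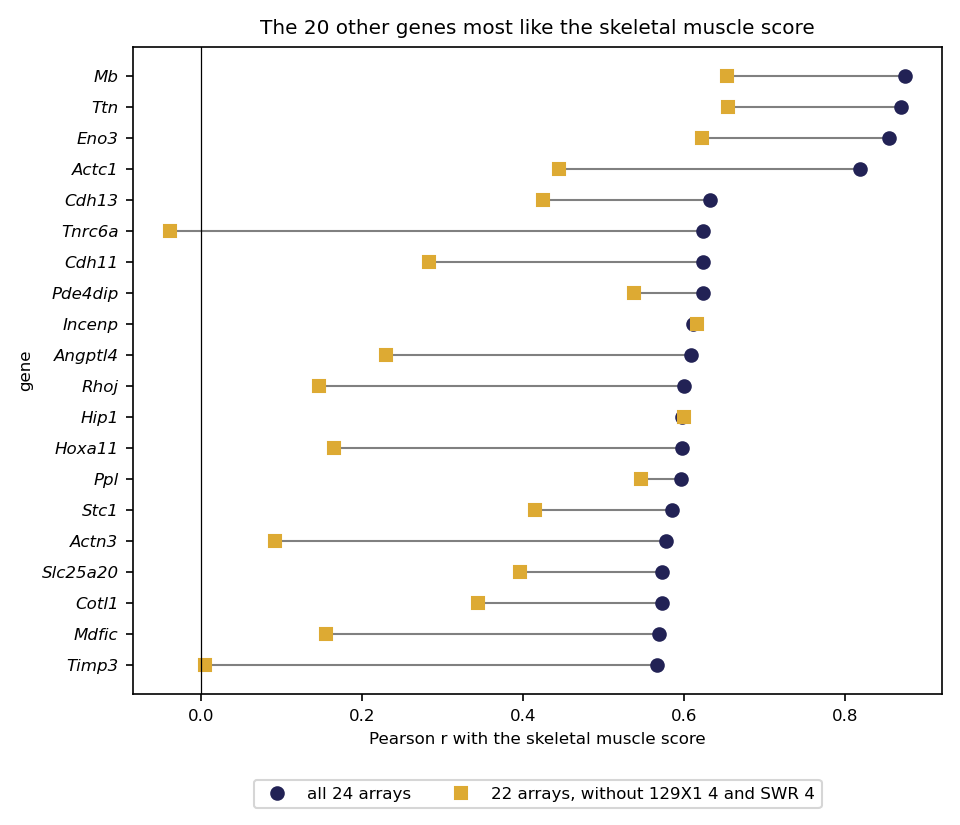
Pearson's r (horizontal axis) between the skeletal muscle score and each of the 20 other genes most like it (rows), over all 24 arrays (dark circles) and over 22 arrays without 129X1 replicate 4 and SWR replicate 4 (yellow squares). Mb, Ttn, Eno3 and Actc1 stand apart at 0.82 to 0.88, and the squares of Tnrc6a and Timp3 are near 0.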

How the data were processed

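Per the submitters' processing notes the arrays were processed with MAS5, with no version or settings given. The deposited values are linear intensities. Their mean over all arrays was 143, and 11 were 0. Here each array was rescaled to a common 2% trimmed mean (98.7; arrays ranged from 91.4 to 104.6), 16 was added and log2 taken. Of 22690 probe sets, 64 controls and 6851 that did not exceed their array's 40th percentile on at least 4 arrays were left out. A linear model of strain was fitted in limma 3.58.1 (R 4.3.3); a moderated F test compared the strains and two-sided contrasts set every strain against the average of the rest, adjusted by Benjamini and Hochberg over the 15775 tested probe sets at 0.05. A gene's value is that of its brightest probe set. The workflow was tested on simulated data.

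The genes and lists were chosen with earlier results of these data known. All 10 genes are named; of the other lists the widest-ranging tested genes and defining markers, the latter chosen after their values were seen; and the 20 genes with the highest and 5 with the lowest r with the score. Replicate numbers were not treated as pairs: deviations from strain means correlated at 0.0053 on average between same-numbered arrays of 2 strains (60 pairs, -0.21 to 0.15, 5 over 0.1). Nothing but the label says that replicates were separate mice, so p values measure the spread between these arrays. Of the probe sets 20393 carry a single symbol in the annotation, 691 more than 1, and 1606 carry none. Alternatives were other pseudocounts, scalings and filters, arrays left out, the replicate number as a block and a smooth muscle covariate.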

Additional observations from a re-analysis of the deposited data

Results flagged for a closer look

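Arrays far from the other 3 of their strain were sought in 66 sets of 4 values, the skeletal muscle score and the 10 genes in each of 6 strains, and 13 had a gap to the nearest array that passed Dixon's limit for 4 values. Chance would mark about 1 in 20 sets if they were independent. They are not, as the genes vary together and the score is their mean, so 1 array can be marked several times. The count therefore cannot be set against that rate. The score of 129X1 replicate 4 (2.0) was 1 of them, and its log2 values of Acta1 (8.97), Mylpf (7.20) and Tnnt3 (7.20) were marked as well. SWR replicate 4 was marked for Mylpf (6.29), Tnnc2 (8.94) and Tnni2 (6.06). AKR replicate 4 was marked for the score (0.041), for Ckm (7.37) and for Mylpf (4.37), although its Mylpf intensity was only 4.71, near the bottom of the scale.

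C57BL/6 replicate 4 was not marked for any gene. Myh4 on FVB replicate 1 (4.53, an intensity of 7.08) was marked as high. Marked as low were the score of FVB replicate 2 (-0.38) and Tnni2 on BALB/c replicate 4 (4.76).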

How the results depend on the processing

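The F test called the same 2 muscle probe sets, Acta1 and Tnnc2, with a pseudocount of 64 or 1, without rescaling, under quantile normalization, with no filter, with the replicate number as a block and without the 6 arrays numbered 4; with the covariate Tnnt3 took the place of Tnnc2, and leaving out 1 array gave 1 to 2. The calls of strains against the others, 3 in all, were 3 to 4 with 1 array left out, 6 without the arrays numbered 4 and 6 with the smooth muscle covariate. In BALB/c the count of 1 became 2 with a pseudocount of 64, without rescaling, with the replicate block, without the arrays numbered 4 and with the covariate, and 1 to 2 with 1 array left out. AKR went from 0 to 1 without the arrays numbered 4 and with the covariate, 129X1 from 0 to 1 with the covariate and C57BL/6 from 0 to 1 without the arrays numbered 4. With the covariate the FVB difference of Acta1 was 0.42 (adjusted p = 0.39), the FVB call was Tnnt3, and the cause was not tested. The replicate number test called 0 muscle probe sets, and 0 to 1 with 1 array left out (Tnni2 without BALB/c replicate 4, the only one of 15677 called). The replicate block changed no other call; samples share only a number. The score range over arrays was 2.59, and 1.65 with a pseudocount of 64, 3.85 with 1 and 0.798 without the arrays numbered 4. The median residual SD of muscle probe sets was 0.635 and 0.330 without those arrays. All 10 genes had their highest array among those numbered 4 with either other pseudocount, without rescaling, under quantile normalization and with the mean of all probe sets of a gene.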
